A study of Mus musculus with 6 samples.

Results

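The genes described here are 9 transcription factors that keep the identity of hepatocytes, the main cell type of the liver. They are Hnf4a, Foxa1, Foxa2, Foxa3, Cebpa, Cebpb, Onecut1, Prox1 and Nr5a2. They were chosen by gene name from a deposited table of 56534 genes and assembled loci, and all 9 were present, each in 1 row. The table gives FPKM (fragments scaled per kilobase of gene and per fixed number of mapped fragments), a level scaled for gene length and for library size. The 6 libraries came from liver of C57BL/6 mice, 3 of them wild type (CON 1 to 3) and 3 with Cd36 deleted (LKO 1 to 3). Both groups ate a diet with 60% of its energy as fat for 16 weeks. CD36 carries long-chain fatty acids into cells. The series title calls the deletion hepatocyte-specific, while the genotype label of the LKO libraries reads CD36-/-. The sources used here do not give the driver of the deletion, the age and sex of the mice, or whether libraries came from separate animals. The p-values therefore speak only of the scatter among these libraries, which may in part be technical.

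These factors bind each other's control regions and those of most genes for plasma proteins, bile acids and metabolism, and together hold an adult hepatocyte in its state. HNF4A and NR5A2 are nuclear receptors, the FOXA proteins open packed chromatin, the C/EBP proteins are leucine zipper factors, and ONECUT1 and PROX1 carry homeodomains. Loss of HNF4A, or of C/EBP alpha relative to C/EBP beta, is known from dedifferentiating, regenerating or inflamed liver.

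The targeted gene, Cd36, was at 61.95, 26.49 and 19.66 FPKM in CON 1 to 3 and at 2.73, 3.70 and 10.22 FPKM in LKO 1 to 3. Every LKO library was below every CON library, with LKO 3 nearest to them. The log2 fold change of FPKM + 1 was -2.50 (SE 0.51), which did not pass over all genes (limma, adjusted p = 0.163; exact two-sided permutation test, p = 0.1, the smallest that 3 against 3 allow). Without LKO 3 it was -2.98, with an adjusted p of 0.0165. LKO 3 also stood apart from LKO 1 and LKO 2 in another way. Deviations from the gene means had a Spearman correlation with gene length of -0.33 and -0.30 in LKO 1 and LKO 2, against 0.21 in LKO 3 and 0.10 to 0.29 in the CON libraries. CON 1 differed from CON 2 and CON 3 in its share of major urinary protein transcripts, 6.22% of the summed FPKM against 15.6% and 22.1%. Since LKO 3 stood apart, the 9 factors and the counts over gene lists are given with and without it. The depth in reads is unknown.

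All 9 factors passed the filter of a mean of at least 1 FPKM, and none passed the test of LKO against CON over the 11104 genes tested (limma, Benjamini-Hochberg adjusted p of 0.179 to 0.918). Over all genes 0.00901% were called, 1 gene in all. In bulk liver, fewer hepatocytes and less of an RNA per hepatocyte cannot be told apart. A total of 8 of the 9 had a negative log2 fold change, where 71.6% of all genes did, and Cebpb was the exception. Their median was -0.59 against -0.23 for all genes. For Cebpa, Prox1 and Nr5a2, 3 of 9, every LKO library was below every CON library, where 24.3% of all genes had this. No member had every LKO library above every CON library, where 3.92% of all genes did. The same 3 had an unadjusted p under 0.05 in the lower direction, where 18.9% of all genes did.

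Of the 9 factors, 8 were below every CON library in both LKO 1 and LKO 2, where 46.6% of all genes were. In LKO 3 the same 8 were higher than in LKO 1 and LKO 2, and Hnf4a, Foxa3 and Onecut1 had their highest value of the 6 libraries there, a place that LKO 3 took for 11.4% of all genes. These 3 thus had LKO 1 and LKO 2 below all CON libraries and LKO 3 above them, where 5.59% of all genes did. The median deviation of the 9 from the CON mean was -0.84 and -0.90 on the log2(FPKM + 1) scale in LKO 1 and LKO 2 and 0.13 in LKO 3. That of all genes tested was -0.21, -0.39 and -0.11.

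**Figure D1:**
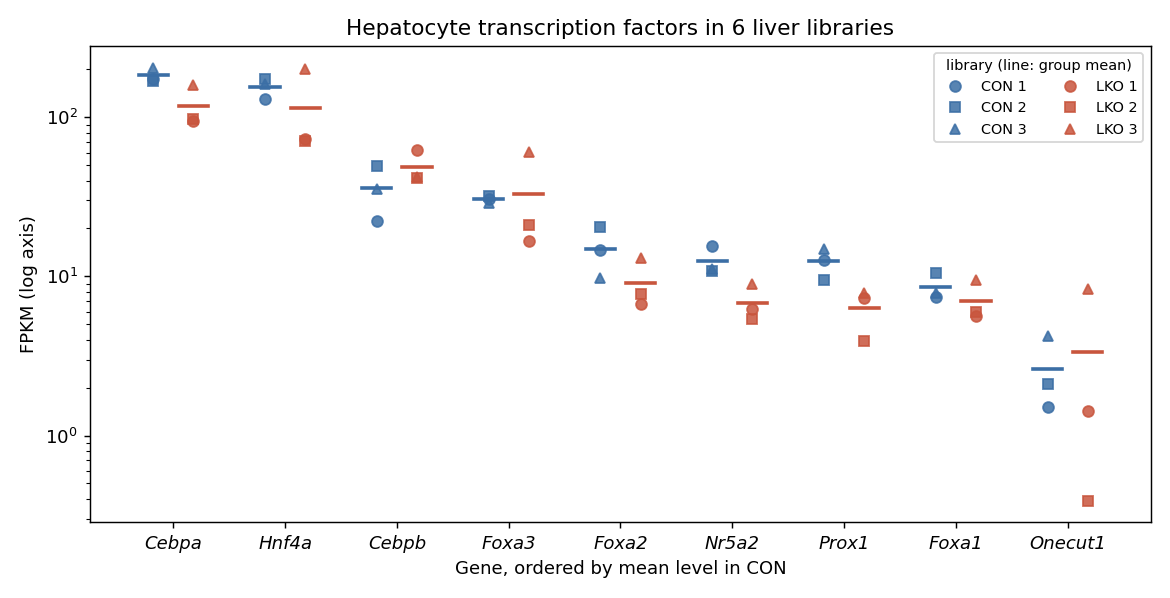
FPKM of the 9 factors in each library on a log axis (blue CON, red LKO; circle, square and triangle are libraries 1, 2 and 3; lines are group means), ordered by the CON mean. LKO 3 lies above LKO 1 and LKO 2 for every factor except Cebpb.

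The excess of negative values depended on how the libraries were scaled, and its cause was not tested. With major urinary protein and mitochondrially encoded genes removed and the libraries rescaled, the median was -0.25 for all genes and -0.62 for the 9 factors. After median-ratio scaling, which divides each library by the median over genes of its ratio to the geometric mean of the libraries, the median of all genes was 0.01 and that of the 9 factors -0.29. Hnf4a, Foxa1, Foxa2, Cebpa, Prox1 and Nr5a2 then stayed negative, 6 of 9, where 48.9% of all genes were, and Foxa3 and Onecut1 did not. Prox1 and Nr5a2, 2 of 9, still had every LKO library below every CON library, where 11.1% of all genes did, while 12.3% had them above. On that scale Hnf4a, Cebpa, Prox1 and Nr5a2, 4 of 9, were below every CON library in both LKO 1 and LKO 2, where 28.6% of all genes were. LKO 3 was again the highest of the 6 libraries for Hnf4a, Foxa3 and Onecut1, where 17.6% of all genes had this, and only Hnf4a kept the pattern of low LKO 1 and LKO 2 with LKO 3 above all CON libraries (7.23% of all genes).

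**Figure D2:**
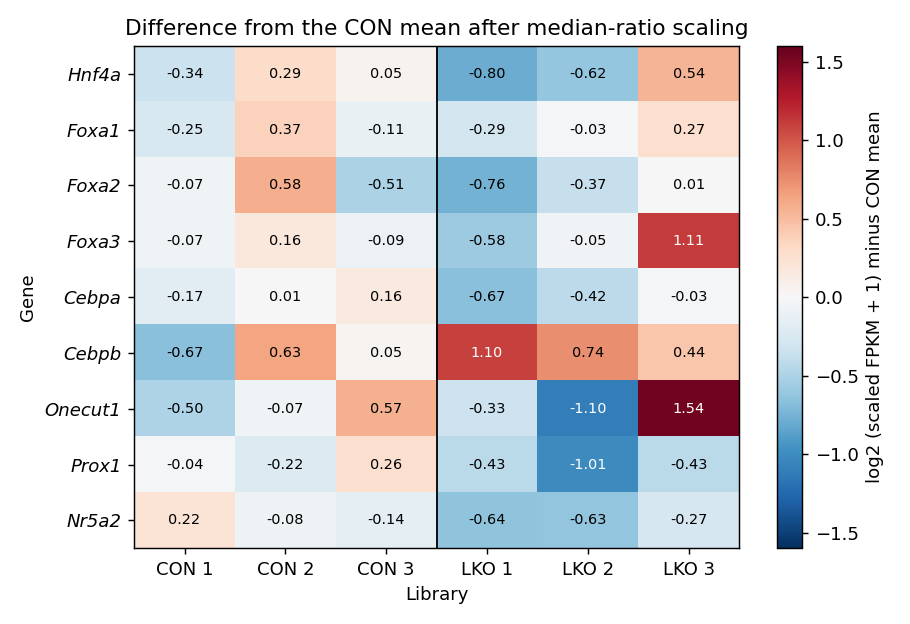
Each cell is 1 factor in 1 library: log2 of the median-ratio scaled FPKM + 1 minus its CON mean (red above, blue below; the line parts CON from LKO). Hnf4a, Foxa3 and Onecut1 reached 0.54, 1.11 and 1.54 in LKO 3, while Prox1 and Nr5a2 were negative in all LKO libraries.

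Without LKO 3, 5 of 9 factors passed in the lower direction (limma), against 19% of all genes lower and 4.6% higher. They were Hnf4a, with a log2 fold change of -1.08 and an adjusted p of 0.0182, Cebpa (-0.92, adjusted p = 0.0193), Nr5a2 (-0.97, adjusted p = 0.0257), Foxa3 (-0.68, adjusted p = 0.0335) and Prox1 (-1.05, adjusted p = 0.0404). That choice of libraries was made with their values known, and it leaves LKO with the 2 libraries that share the negative length trend. With median-ratio scaling as well, only Nr5a2 passed (-0.64, adjusted p = 0.0387), where 8.26% of all genes were called lower and 11.4% higher. With the length trend removed instead, none of the 9 passed (smallest adjusted p = 0.0581), where 5.61% were called lower and 6.39% higher. With all 6 libraries weighted by their scatter gene by gene, Hnf4a, Cebpa, Prox1 and Nr5a2 passed lower, 4 of 9, where 21.6% of all genes were lower and 6.02% higher. Those weights were estimated from the same values and were 2.75, 0.55 and 0.283 for LKO 1 to 3. That fit thus rested mostly on LKO 1 within LKO and gave LKO 3 little part. The planned array weights, whose estimation did not converge, called 8 of 9 (7 lower and 1 higher, where 37.6% and 15.2% of all genes were called).

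**Figure D3:**
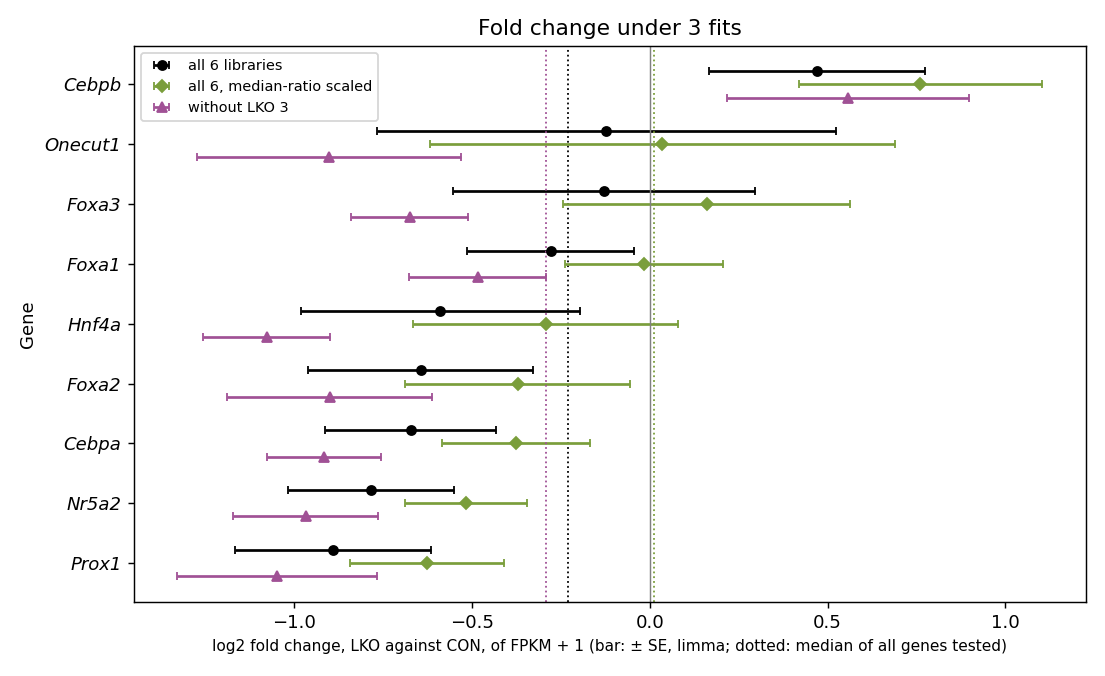
Log2 fold change of FPKM + 1, LKO against CON, with ± SE from limma, for all 6 libraries (black), after median-ratio scaling (green) and without LKO 3 (purple); dotted lines are the medians of all genes in each fit. Foxa3 and Onecut1 cross 0 between fits, and Cebpb is the only factor on the positive side in all 3.

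In level per length, Cebpa (183 FPKM) and Hnf4a (155 FPKM) led the CON libraries, and their ranges overlapped. Cebpb (35.8 FPKM) and Foxa3 (30.5 FPKM) came next and also overlapped. Foxa2 (14.9 FPKM), Nr5a2 (12.4 FPKM), Prox1 (12.4 FPKM) and Foxa1 (8.61 FPKM) formed a chain in which each range overlapped the next, and Onecut1 (2.60 FPKM) was below them. Hnf4a and Cebpa together made up 71.9% to 76.5% of the summed FPKM of the 9 in CON. In LKO 1, LKO 2 and LKO 3 they made up 61.4%, 66.3% and 70.7%.

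Hnf4a (ENSMUSG00000017950) encodes the nuclear receptor that most hepatocyte genes depend on. It was at 129.28, 174.81 and 161 FPKM in CON 1 to 3 and at 73.33, 71.35 and 201.5 FPKM in LKO 1 to 3. LKO 1 and LKO 2 were far below the CON range and LKO 3 was above it, so the groups overlapped. The CON mean was 155 ± 23.3 FPKM and the LKO mean 115 ± 74.6 FPKM (SD, n = 3 each), with a log2 fold change of -0.59 (SE 0.39) and an adjusted p of 0.368 (limma). Among the genes tested it ranked at the 93.3 to 94.7 percentile of FPKM in CON, and at 90.3, 91.1 and 95.5 in LKO 1 to 3. It thus stayed among the abundant genes of every library. The log2 fold change was -0.36 without LKO 1, -0.34 without LKO 2 and -1.08 without LKO 3.

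Hnf4a is known to have a distal and a proximal promoter, the proximal one being the one used in adult hepatocytes, and the deposited row does not part their transcripts. The upstream of the 2 RefSeq promoter windows of Hnf4a, 250 bases before to 50 after an annotated start, is shown because it holds letters of the motif of ONECUT1, another of the 9 (chr2:163506607-163506906, plus strand, GRCm38.p6, 5′ to 3′). Capitals mark ATTGATT or its reverse complement.
Hnf4a: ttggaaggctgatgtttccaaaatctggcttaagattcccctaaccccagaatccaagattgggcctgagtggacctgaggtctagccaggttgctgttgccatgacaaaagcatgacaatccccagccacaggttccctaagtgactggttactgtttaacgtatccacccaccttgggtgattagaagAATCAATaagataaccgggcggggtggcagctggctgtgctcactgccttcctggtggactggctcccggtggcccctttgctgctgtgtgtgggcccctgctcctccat
The letters were found 1 time, on the reverse strand, beginning 60 bases before the start, and 2.86% of 32851 promoter windows of that length held them on either strand. The only other window of the 9 genes with them was 1 of Foxa2.

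Hnf4aos (ENSMUSG00000046840), the RNA transcribed from the opposite strand of the Hnf4a locus, was at 4.89, 2.78 and 3.01 FPKM in CON 1 to 3. It was at 1.63, 1.89 and 0.91 FPKM in LKO 1 to 3. All LKO libraries were below all CON libraries, also after median-ratio scaling, and the lowest was LKO 3, where Hnf4a was highest. limma gave a log2 fold change of -0.87 (SE 0.25) and an adjusted p of 0.179. No source used here states the strand setting of the counting, so reads of the gene and its antisense partner may have been mixed.

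The genes with the profile nearest to that of Hnf4a over the 6 libraries were Klhl21, an adaptor of ubiquitin ligases, Dnaja1, a heat shock co-chaperone, and St3gal4, a sialyltransferase. Their mean absolute differences from Hnf4a in centred log2(FPKM + 1) were 0.09, 0.10 and 0.11. Klhl21 was at 13.54, 14.97 and 18.90 FPKM in CON 1 to 3 and at 7.02, 7.08 and 21.34 FPKM in LKO 1 to 3. Of the other 8 factors, Foxa3 was nearest to Hnf4a (0.25, rank 332 among the named genes tested) and Cebpb farthest (0.74, rank 8907).

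The Foxa genes had unlike values in LKO 3, with Foxa3 far above its CON range and Foxa1 and Foxa2 within theirs. Foxa1 (ENSMUSG00000035451), Foxa2 (ENSMUSG00000037025) and Foxa3 (ENSMUSG00000040891) encode forkhead proteins that bind closed chromatin and have overlapping roles in liver. Foxa3 was at 30.82, 31.8 and 28.74 FPKM in CON 1 to 3 and at 16.62, 20.98 and 60.37 FPKM in LKO 1 to 3. Its coefficient of variation was 5.13% in CON, the smallest of the 9, and 73.8% in LKO. Its mean was therefore slightly higher in LKO (32.7 ± 24.1 FPKM against 30.5 ± 1.56 FPKM in CON; SD, n = 3 each), while its log2 fold change was -0.13 (SE 0.43; adjusted p = 0.864, limma). The value turned positive without LKO 1 (0.22) or LKO 2 (0.07) and was -0.68 without LKO 3.

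Foxa2 was at 14.57, 20.35 and 9.79 FPKM in CON 1 to 3 and at 6.69, 7.74 and 12.99 FPKM in LKO 1 to 3. Only LKO 3 reached the CON range, which was itself wide (log2 fold change -0.64, SE 0.32, adjusted p = 0.259, limma). Without CON 2 the value was -0.40, and without LKO 3 it was -0.90 (adjusted p = 0.0617, limma). Foxa1 was at 7.45, 10.53 and 7.86 FPKM in CON 1 to 3 and at 5.65, 5.97 and 9.43 FPKM in LKO 1 to 3. The log2 fold change, -0.28 (SE 0.24) with an adjusted p of 0.466, came to -0.02 after median-ratio scaling, to -0.14 without CON 2, to -0.16 without LKO 1 and to -0.48 without LKO 3.

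A share within a library does not move with the scale of the library, though a trend with gene length can move it. Foxa3 made up 58.3%, 50.7% and 62.0% of the summed FPKM of the 3 Foxa genes in CON 1 to 3, and 57.4%, 60.5% and 72.9% in LKO 1 to 3. The difference of the means, 6.59 percentage points, was within the spread of the libraries (exact two-sided permutation test, p = 0.5, and p = 0.5 adjusted over 2 ratio tests). LKO 3 alone lay above the CON range, and without it the difference was 1.93 points. Without CON 2 it was 3.46 points. The summed FPKM of the 3 genes was 52.8, 62.7 and 46.4 in CON 1 to 3 and 29.0, 34.7 and 82.8 in LKO 1 to 3.

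Cebpa and Cebpb, whose proteins bind the same DNA motif, had values of opposite sign. Cebpa (ENSMUSG00000034957) holds hepatocytes out of the cell cycle and drives metabolic genes. It was at 173.06, 169.51 and 205.07 FPKM in CON 1 to 3 and at 94.68, 97.14 and 159.76 FPKM in LKO 1 to 3. Every LKO library was below every CON library, LKO 3 by a small gap. The log2 fold change was -0.67 (SE 0.24, adjusted p = 0.196, limma), and after median-ratio scaling it was -0.38 and the groups overlapped.

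Cebpb (ENSMUSG00000056501) encodes the partner that is induced by cytokines, cyclic AMP and liver injury. It was at 22.42, 49.46 and 35.54 FPKM in CON 1 to 3 and at 61.83, 41.43 and 42.02 FPKM in LKO 1 to 3. LKO 1 was the highest of the 6 libraries, but CON 2 was above LKO 2 and LKO 3. The log2 fold change of 0.47 (SE 0.30, adjusted p = 0.355, limma) was positive, against a median of -0.23 for all genes, and was 0.76 after median-ratio scaling. Without CON 1, the lowest library, it was 0.18, without LKO 1 it was 0.28, and without CON 2 it was 0.73. Without LKO 3 it was 0.56 (adjusted p = 0.249, limma).

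The promoter windows of both genes are shown to set them side by side, since their values had opposite signs. Capitals mark TATAAA, the letters of a TATA box, and in Cebpb also TGACG, the half-site of cyclic AMP response elements (either strand). The Cebpa window is chr7:35119043-35119342, plus strand and the Cebpb window chr2:167688665-167688964, plus strand (RefSeq, GRCm38.p6).
Cebpa: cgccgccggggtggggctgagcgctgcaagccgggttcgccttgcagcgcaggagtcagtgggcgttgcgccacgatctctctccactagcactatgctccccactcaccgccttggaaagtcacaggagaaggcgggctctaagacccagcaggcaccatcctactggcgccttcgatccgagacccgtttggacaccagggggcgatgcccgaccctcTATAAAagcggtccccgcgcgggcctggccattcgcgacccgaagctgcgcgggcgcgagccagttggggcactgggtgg
Cebpb: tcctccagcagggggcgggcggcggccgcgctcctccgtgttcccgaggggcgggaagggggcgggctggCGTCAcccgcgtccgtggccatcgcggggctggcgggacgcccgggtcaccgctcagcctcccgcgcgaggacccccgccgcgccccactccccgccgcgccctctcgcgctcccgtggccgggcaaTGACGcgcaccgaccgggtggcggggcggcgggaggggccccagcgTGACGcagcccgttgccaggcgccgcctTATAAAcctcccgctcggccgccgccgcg
TATAAA began 30 bases before the annotated start in Cebpa and 21 bases after it in Cebpb, and 13.6% of all windows held it. TGACG was found 3 times in the Cebpb window, beginning 180, 53 and 7 bases before the start. It was absent from the Cebpa window, and the share of all windows with any TGACG, whatever the number, was 20.8%. The Cebpb window was 80.7% G and C and the Cebpa window 67.3%, where the median of all windows was 52.7%. The full palindrome TGACGTCA was in neither window (1.79% of all windows).

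The ratio of Cebpb to Cebpa FPKM was 0.13, 0.292 and 0.173 in CON 1 to 3 and 0.653, 0.426 and 0.263 in LKO 1 to 3. LKO 1 and LKO 2 were above every CON library, and LKO 3 was between CON 3 and CON 2. A trend with gene length can move this ratio, as Cebpb has 1504 bases and Cebpa 2626, and LKO 1 and LKO 2 shared the negative trend. With the length trend removed, the log2 fold change was 0.57 for Cebpb and -0.43 for Cebpa. On the log2 scale the mean ratio was -2.42 ± 0.59 in CON and -1.26 ± 0.66 in LKO (SD, n = 3 each), a difference of 1.16. The exact two-sided permutation test gave p = 0.2 (0.4 adjusted over 2 ratio tests), where 3 against 3 cannot go below 0.1. Monocyte and neutrophil markers, of interest because these cells also express both genes, summed to 6.13 to 11.0 FPKM in CON and 4.14 to 6.41 FPKM in LKO. The lower sum lay in S100a8 and S100a9. The monocyte marker Ly6c2 was higher in every LKO library (1.94, 1.43 and 1.71 FPKM, against 1.07, 0.90 and 1.08 FPKM in CON), where 3.92% of all genes tested were. Ccr2 and Itgam, of the same list, overlapped between the groups. The neutrophil marker Ly6g was listed at 0 in all 6 libraries.

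**Figure D4:**
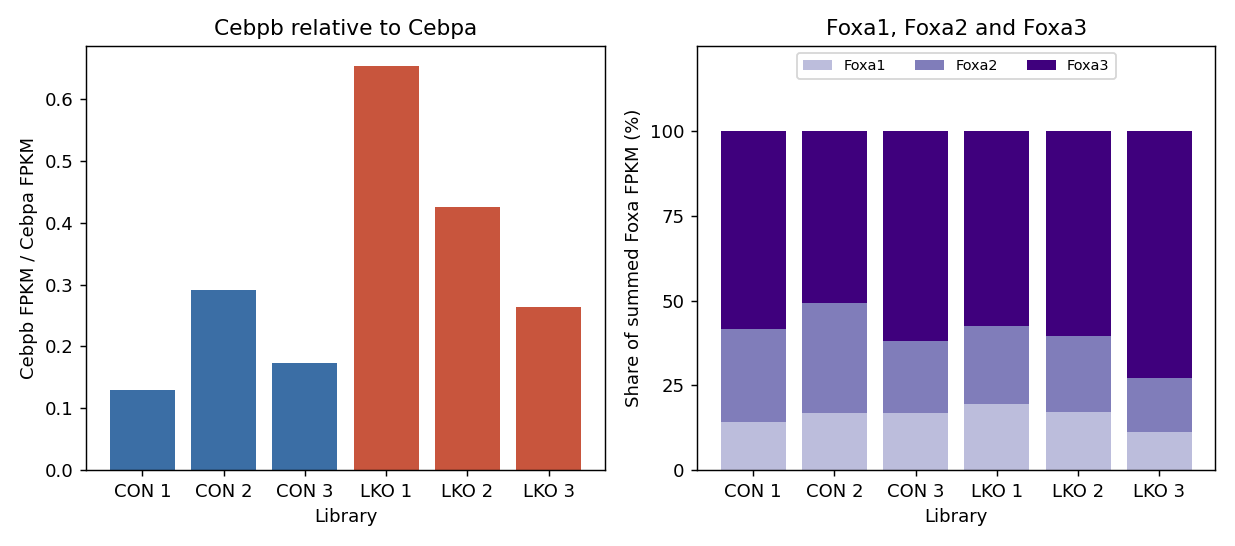
Left, Cebpb FPKM divided by Cebpa FPKM in each library (blue CON, red LKO): LKO 1 and LKO 2 (0.653 and 0.426) stand above all CON libraries, LKO 3 (0.263) below CON 2 (0.292). Right, shares of Foxa1, Foxa2 and Foxa3 in their summed FPKM, with Foxa3 at 72.9% in LKO 3.

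Onecut1 (ENSMUSG00000043013), also called HNF6, acts in bile duct and hepatocyte development and helps set the sex-biased expression of adult liver. It was the lowest and the most variable of the 9, at 1.5, 2.1 and 4.2 FPKM in CON 1 to 3 and at 1.42, 0.39 and 8.29 FPKM in LKO 1 to 3. LKO 2 and LKO 3 held the lowest and the highest value of the 6 libraries. The coefficient of variation was 54.5% in CON and 128% in LKO, and the log2 fold change of -0.12 (SE 0.65, adjusted p = 0.918, limma) changed sign with the scale. It was positive without CON 3 (0.18), LKO 1 (0.07) or LKO 2 (0.47), and -0.90 without LKO 3, -0.35 without CON 1 and -0.20 without CON 2. It ranked at the 1.28 percentile of genes tested in LKO 2 and at the 56.5 percentile in LKO 3.

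Prox1 (ENSMUSG00000010175) encodes a homeodomain protein that binds HNF4A and NR5A2 and represses metabolic genes with histone deacetylase 3. It was at 12.67, 9.54 and 14.93 FPKM in CON 1 to 3 and at 7.27, 3.92 and 7.86 FPKM in LKO 1 to 3. Every LKO library was below every CON library before and after median-ratio scaling, and LKO 3 was here close to LKO 1. The LKO mean of 6.35 ± 2.13 FPKM was 0.513 of the CON mean of 12.4 ± 2.71 FPKM (SD, n = 3 each). limma gave a log2 fold change of -0.89 (SE 0.28) and an adjusted p of 0.182, and the value was -0.63 after median-ratio scaling and -0.52 with the length trend removed. Prox1 is the longest of the 9, at 7913 bases.

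Lymphatic endothelial cells also express Prox1. Their 4 markers summed to 2.38 to 9.59 FPKM in CON and 4.97 to 8.38 FPKM in LKO, and Pdpn, which defines them, was at 0.21 FPKM or less in all libraries. Lyve1, among the 4, was also listed as a sinusoidal marker. Ccl21a was at 1.54, 0.50 and 2.79 FPKM in CON 1 to 3 and at 6.39, 4.24 and 0.74 FPKM in LKO 1 to 3. The opposite-strand RNA Prox1os (ENSMUSG00000079045) was at 9.55, 10.87 and 8.60 FPKM in CON 1 to 3 and at 11.59, 10.78 and 5.59 FPKM in LKO 1 to 3. Its groups overlapped, and its lowest library was LKO 3 (log2 fold change -0.10, adjusted p = 0.832, limma).

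Nr5a2 (ENSMUSG00000026398), also called LRH-1, is the nuclear receptor that activates genes of bile acid synthesis and cholesterol export. It was at 15.43, 10.74 and 11.09 FPKM in CON 1 to 3 and at 6.21, 5.38 and 8.94 FPKM in LKO 1 to 3. The groups did not overlap, before or after median-ratio scaling. The LKO mean of 6.84 ± 1.86 FPKM was 0.551 of the CON mean of 12.4 ± 2.61 FPKM (SD, n = 3 each). The log2 fold change of -0.78 (SE 0.23) had the smallest adjusted p of the 9 but did not pass (0.179, limma). It was -0.52 after median-ratio scaling and -0.45 with the length trend removed.

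In the RefSeq promoter windows of the 9 genes, AAGGTCA, the extended half-site of NR5A2 itself, was in none of the 14 (4.72% of all windows). The same held for CAAAGTCCA, letters of the HNF4 motif (0.475%), and TTGCGCAA, of the C/EBP motif (0.183%). Letters of FOXA motifs were found, on either strand: TGTTTAC in the window of Foxa1 (3.65% of all windows) and TGTTTGC in 1 window of Prox1 (5.07%).

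Of 19 listed partners and antagonists of the 9 factors, 17 were tested and none passed (limma, smallest adjusted p = 0.163). An unadjusted p under 0.05 was found for 4 lower and 1 higher, where 18.9% and 3.25% of all genes had one (limma). The median log2 fold change of the 17 was -0.34, and -0.06 after median-ratio scaling. LKO was below CON without overlap for 2 and above for 1, where 24.3% and 3.92% of all genes had this. Trib1 encodes the scaffold through which the ubiquitin ligase COP1 destroys C/EBP alpha. It was at 21.17, 20.42 and 20.76 FPKM in CON 1 to 3 and at 9.54, 7.66 and 12.21 FPKM in LKO 1 to 3. The CON libraries were nearly equal, and the LKO mean was 0.472 of theirs (log2 fold change -1.03, SE 0.20, adjusted p = 0.163), and the groups stayed apart after median-ratio scaling (-0.76).

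Cop1, the ligase itself, had a mean of 30.3 ± 1.87 FPKM over the CON and 20.5 ± 6.09 FPKM over the LKO libraries (SD, n = 3; adjusted p = 0.207, limma). Cebpd, another C/EBP gene, had a positive value like Cebpb, at 3.04, 4.64 and 2.73 FPKM in CON 1 to 3 and 6.70, 5.77 and 5.81 FPKM in LKO 1 to 3. Every LKO library was above every CON library (log2 fold change 0.69, SE 0.21, adjusted p = 0.180, limma). Nr0b2 (SHP), the receptor that lacks a DNA-binding domain and represses NR5A2 and HNF4A, had means of 28.5 ± 5.95 (CON) and 37.7 ± 8.53 FPKM (LKO) with overlap (adjusted p = 0.342), though after median-ratio scaling every LKO library was above every CON library. The coactivator Ncoa1 had a log2 fold change of -0.57 (adjusted p = 0.204). Without LKO 3, 5 of the 17 passed lower, among them Trib1, Cop1 and Ncoa1 (adjusted p of 0.0141, 0.0254 and 0.0484), and none higher, where 19% of all genes passed lower and 4.6% higher. With median-ratio scaling as well, 2 passed lower and 1, Cebpd (adjusted p = 0.0374), higher, where 8.26% of all genes passed lower and 11.4% higher.

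Of 20 other liver-enriched transcription factor genes, 20 were tested and none passed (limma). An unadjusted p under 0.05 was found for 4 lower and 0 higher, where 18.9% and 3.25% of all genes had one (limma). Of the 20 genes, 17 were negative, and the median was -0.38 (-0.14 after median-ratio scaling, with 15 negative). Over all genes 71.6% were negative, and 48.9% after scaling, with medians of -0.23 and 0.01. In 7 of the 20, LKO was below CON without overlap, and in 2 after scaling, where 24.3% and 11.1% of all genes had this. The nuclear receptor gene Nr1i3 (CAR), the sensor of foreign compounds, was at 136.05, 121.91 and 121.55 FPKM in CON 1 to 3 and 74.48, 88.74 and 67.46 FPKM in LKO 1 to 3. Its lowest library was LKO 3, unlike the 8 factors above (log2 fold change -0.72, SE 0.17, adjusted p = 0.172, limma). Nr1h4 (FXR), the bile acid receptor, likewise had its lowest value, 37.44 FPKM, in LKO 3, against 56.45 to 76.39 FPKM in CON (adjusted p = 0.179). After median-ratio scaling the groups of both genes overlapped.

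Nfix, a nuclear factor I gene, had means of 16.5 ± 3.10 (CON) and 8.56 ± 0.99 FPKM (LKO; SD, n = 3; adjusted p = 0.165, limma), and Zhx2, a homeobox repressor of fetal liver genes, of 3.25 ± 0.88 and 1.66 ± 0.61 FPKM (adjusted p = 0.196). Rxra, the common partner of many nuclear receptors though not of HNF4A, was, like Hnf4a, low in LKO 1 and LKO 2 only. It was at 143.32, 119.06 and 134.12 FPKM in CON 1 to 3 and 55.17, 52.54 and 140.38 FPKM in LKO 1 to 3 (log2 fold change -0.82, adjusted p = 0.232). Without LKO 3 it was -1.28 (adjusted p = 0.0112), and -0.91 with median-ratio scaling as well (adjusted p = 0.0194). Without LKO 3, 4 of the 20 passed lower, among them Nr1i3 and Nfix (adjusted p of 0.0359 and 0.0240), and none higher, near the 19% and 4.6% of all genes. With median-ratio scaling as well 2 passed, Nfix and Rxra, both lower, where 8.26% of all genes passed lower and 11.4% higher.

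Values of known targets of the factors had both signs. The lists of targets share genes, and Apoa1 is in the HNF4A, NR5A2 and FOXA lists and counted in each. Unadjusted p-values under 0.05 (limma) were found for 2 lower and 2 higher of the HNF4A targets and for 3 and 1 of the NR5A2 targets. They were found for 1 and 0 of the C/EBP targets and for 2 and 1 of the FOXA and ONECUT1 targets. All the higher ones were Apoa1 or Ces2a. Over all genes, 18.9% had such a p-value in the lower and 3.25% in the higher direction. Of 16 HNF4A targets, 12 were negative, where 71.6% of all genes were, and none passed (median log2 fold change -0.32, and -0.03 after median-ratio scaling). Without overlap, 2 were lower and 2 higher in LKO, where 24.3% and 3.92% of all genes were. Apoa1, the main HDL apolipoprotein, was at 9739.5, 10908.95 and 12585.75 FPKM in CON 1 to 3 and at 20480.46, 18115.81 and 16035.84 FPKM in LKO 1 to 3. Every LKO library was above every CON library, and LKO 1 and LKO 2, the libraries with the least Hnf4a, were highest (log2 fold change 0.72, SE 0.25, adjusted p = 0.196, limma). Ces2a, a carboxylesterase, was also higher in every LKO library (118 ± 7.38 and 186 ± 39.1 FPKM in CON and LKO, adjusted p = 0.183). The clotting factor genes F7 and F9 were lower in every LKO library, with log2 fold changes of -0.65 (adjusted p = 0.179) and -0.62 (adjusted p = 0.187). After median-ratio scaling these were -0.36 and -0.33, and the groups of F9 overlapped.

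Of 10 NR5A2 targets, 8 were negative, where 71.6% of all genes were, and none passed (median -0.48, and -0.21 after scaling). Without overlap, 3 of the 10 were lower and 1 higher in LKO, where 24.3% and 3.92% of all genes were. Abcg8, a half-transporter of sterols into bile, had means of 23.8 ± 7.93 (CON) and 11.5 ± 2.57 FPKM (LKO; SD, n = 3; adjusted p = 0.179, limma), and the kinase gene Plk3 had a log2 fold change of -0.66 (adjusted p = 0.187).

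Of 12 C/EBP targets, 11 were negative, none passed and none had separate groups (median -0.45, and -0.15 after scaling). Of all genes, 71.6% were negative, 24.3% had LKO below CON without overlap and 3.92% had it above. The acute phase genes Saa1, Lcn2 and Orm2 had a wide spread within CON. Saa1 was at 78.03, 4050.97 and 3561.49 FPKM in CON 1 to 3 and at 244.9, 145.06 and 139.05 FPKM in LKO 1 to 3. It was high in CON 2 and CON 3 alone, and Lcn2 and Orm2 had their 2 highest values in the same libraries (adjusted p of 0.277, 0.222 and 0.278 for Saa1, Lcn2 and Orm2). Alb, the albumin gene, was at 45750.81, 28574.83 and 24911.37 FPKM in CON 1 to 3 and at 17441.08, 16410.33 and 26682.28 FPKM in LKO 1 to 3, again lowest in LKO 1 and LKO 2 (adjusted p = 0.266, limma). Cps1, of the urea cycle, was low in LKO 1 and LKO 2 and highest in LKO 3, at 481.51, 426.06 and 396.93 FPKM in CON 1 to 3 and 193.03, 159.16 and 560.44 FPKM in LKO 1 to 3 (adjusted p = 0.319). Its log2 fold change was -0.74, and -1.30 without LKO 3 (adjusted p = 0.0141).

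Of 10 FOXA and ONECUT1 targets, 9 were tested, 8 were negative, where 71.6% of all genes were, and none passed (median -0.54, and -0.24 after scaling). Without overlap, 2 of the 9 were lower and 1 higher in LKO, where 24.3% and 3.92% of all genes were. Slc2a2, the GLUT2 glucose transporter gene, had means of 71.3 ± 15.3 (CON) and 37.6 ± 10.3 FPKM (LKO; SD, n = 3; adjusted p = 0.176, limma), and Tdo2, of tryptophan breakdown, of 923 ± 136 and 499 ± 166 FPKM (adjusted p = 0.179). Both were lower in every LKO library. Tat, the tyrosine aminotransferase gene, was lowest in LKO 3 (271.62 FPKM, against 505.29 to 627.63 FPKM in CON; adjusted p = 0.226). Its log2 fold change of -0.60 was -0.36 without LKO 3, and 0.02 with median-ratio scaling as well. Without LKO 3, the number passing lower was 2, 4, 2 and 2 in the HNF4A, NR5A2, C/EBP and FOXA lists, and the number passing higher was 2, 1, 0 and 1, where 19% of all genes passed lower and 4.6% higher. Those passing lower then included F7, F9, Abcg8, Plk3, Slc2a2 and Tdo2 (adjusted p of 0.0304, 0.0236, 0.0351, 0.0333, 0.0224 and 0.0196). Apoa1 (adjusted p = 0.0499) was 1 of the 2 passing higher in the HNF4A list and the only one in the NR5A2 and FOXA lists. With median-ratio scaling as well, 0, 1, 1 and 0 passed lower and 2, 0, 0 and 0 higher, Ces2a among the latter (adjusted p = 0.0419). Over all genes 8.26% then passed lower and 11.4% higher.

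Most genes that mark fetal liver or bile ducts were near 0. Of 16, 11 were under the filter, among them Afp, the fetal albumin-like protein, at 0.36 to 0.64 FPKM, and H19, Dlk1 and Gpc3. None of the 5 tested passed (limma), and 4 of the 5 were positive, where 71.6% of all genes were negative. An unadjusted p under 0.05 was found for 0 of the 5, where 18.9% of all genes had one lower and 3.25% higher (limma). Spp1, osteopontin, which bile duct cells and macrophages make, was at 47.66, 31.86 and 26.43 FPKM in CON 1 to 3 and at 52.06, 69.58 and 31.27 FPKM in LKO 1 to 3. Its log2 fold change was 0.49, and 0.80 without LKO 3 (adjusted p = 0.0724). Without LKO 3, 0 of the 5 passed, where 19% of all genes passed lower and 4.6% higher. With median-ratio scaling as well 1 passed, Spp1 (1.16, adjusted p = 0.0436), where 8.26% passed lower and 11.4% higher. Cd24a and Epcam had log2 fold changes of 0.14 and 0.15, and of 0.28 and 0.34 without LKO 3. The 7 bile duct markers summed to 34.0 to 58.0 FPKM in CON and 37.6 to 78.1 FPKM in LKO, most of it Spp1, and Cftr was at 0.11 FPKM or less. Of the 4 tested, 3 were positive and 1 negative. Krt7, under the filter, was higher in every LKO library (0.41, 0.40 and 0.31 FPKM, against 0.17, 0.09 and 0.11 FPKM in CON), where 3.92% of all genes tested were.

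All 9 hepatocyte markers were present in every library, with sums of 54000 to 66700 FPKM in CON and 49900 to 64000 FPKM in LKO. Kupffer cell markers summed to 107 to 162 FPKM in CON and 82.0 to 165 FPKM in LKO, endothelial markers to 30.9 to 87.3 and 40.1 to 55.2 FPKM, and stellate markers to 39.2 to 44.3 and 39.2 to 49.3 FPKM. The sum of 6 lymphocyte markers was slightly higher in every LKO library (3.40 to 3.43 FPKM, against 2.71 to 3.13 FPKM in CON). Cd3e and Cd3g, both under the filter, were higher in every LKO library, where 3.92% of all genes tested were. Trac, the only one of the 6 lymphocyte markers tested, had a negative value. Adipocyte markers reached at most 0.11 FPKM, and the pancreatic genes Prss2 and Cpa1 were listed at 0, with Cela1 making up the pancreatic sum of 30.8 to 41.7 FPKM in CON and 41.5 to 49.1 FPKM in LKO. The pancreas also expresses Onecut1, Foxa2 and Nr5a2. The part of other cells in the levels of the 9 factors was not tested.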

How the data were processed

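The deposited FPKM were made by the authors, 1 column per library, rounded to 2 decimals. Per the submitters' processing notes, HISAT2, StringTie and the mouse build mm9 were used. Versions, annotation and strand setting were not given in the sources used here. Of the 55536 Ensembl identifiers, 55450 were in GENCODE M21, an annotation of GRCm38. The deposited file also gives gene length in bases. A total of 2 lines that continued an annotation text were dropped, and Ddit3 and Ccl21a had 2 rows each (the higher was used in lists). FPKM times length fell on no common step in short genes, so reads could not be recovered and no count test was run.

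The design was LKO against CON, grouped by title. The 11104 genes whose mean reached 1 FPKM were taken to log2(FPKM + 1), which understates changes of low genes, and tested with limma 3.58.1 (R 4.3.3; lmFit, eBayes with trend, two-sided, Benjamini-Hochberg over all genes, threshold 0.05). Ratios were tested by exact permutation (scipy 1.17.1). The steps were tested on simulated data. The 9 members and the gene lists were chosen with earlier results of these data known. Named genes are the 9 factors, their opposite-strand RNAs, Cd36, the 3 profiles nearest to Hnf4a, up to 4 genes per list with the smallest p, and, picked with their values known, Nr0b2, Rxra and Cps1, which have a known relation to a factor. Genes named only as under the filter or as a cell marker follow no such rule. Some listed genes are not reported here by name. Promoter windows came from RefSeq (GRCm38.p6), matched by symbol for all 9 genes (14 windows). The deposited table gives no coordinates.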

Additional observations from a re-analysis of the deposited data

How the results depend on the processing

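None of the 9 factors passed in 17 of the 21 alternatives tried. The direction of 7 held in all 21, with Foxa3 and Onecut1 as exceptions. The count of genes called over all genes was 0 with a pseudocount of 0.1, with no filter, with a filter at a mean FPKM of 5, and with the length trend removed. Leaving out 1 library at a time gave 0 to 2626 genes and 0 to 5 factors called, with the upper ends without LKO 3. Cd36 ranged from -2.98 to -2.03 over the same fits. The replicate block gave 0 genes, also with the length trend removed. Deviations of same-numbered libraries correlated at -0.05, 0.17 and 0.07, so the numbers were not taken as pairs. Array weights gave 5864 genes, 8 factors (7 lower, 1 higher, where 37.6% and 15.2% of all genes were called) and a Cd36 value of -2.86. The estimation of those weights stopped before it converged, with a weight of 13.8 for LKO 1 and 0.2 for LKO 3. Alternatives chosen after seeing the data were weights estimated gene by gene, which gave 3072 genes, 4 factors (Hnf4a, Cebpa, Prox1 and Nr5a2, all lower, where 21.6% of all genes were lower and 6.02% higher) and -2.70 for Cd36. The others left out LKO 3 with median-ratio scaling (2182 genes, 1 factor, Cd36 at -2.65) or with the length trend removed (1333 genes, 0 factors, Cd36 at -2.61). Foxa3 turned positive with median-ratio scaling (0.16), quantile normalization (0.084), the length trend removed (0.072, also with the replicate block), without LKO 1 (0.22) and without LKO 2 (0.07), and ranged from -0.68 to 0.22 with 1 library left out. Onecut1 turned positive in the same fits (0.035, 0.041, 0.18, 0.18 with the block, 0.07 and 0.47) and without CON 3 (0.18), with a range of -0.90 to 0.47 over the left-out libraries. It was not tested at the filter of 5. The difference in the Cebpb to Cebpa log2 ratio was 0.84 to 1.5 and that in the Foxa3 share 1.93 to 9.69 points with 1 library left out. The cause of these moves was not tested. With 3 libraries a group and unknown depth, differences within the spread of these libraries were not detectable.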
